A study of Homo sapiens with 12 samples.

Results

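The genes described are 10 components of the Wnt pathway: the receptors FZD2 and FZD6, the co-receptors LRP5 and LRP6, the dishevelled proteins DVL1, DVL2 and DVL3, the scaffold AXIN1, and the transcription factors TCF7L1 and TCF7L2. They were taken by name, and all 10 were present among the 11529 genes of the deposited table. The RNA-seq experiment asked how loss of SMARCA4, also called BRG1, an ATPase of the SWI/SNF chromatin remodelling complex, changes expression in triple-negative breast cancer cells. The established lines were MDA-MB-468, of the stem-like subtype, and MDA-MB-231, of the mesenchymal-like subtype. In each line 3 control samples, labelled wild type, were set against 3 samples of a SMARCA4 knockout (KO), a polyclonal pool made with 1 lentiviral CRISPR guide and puromycin selection. Such a pool can hold cells with different edits or with none. The labels give the controls as wild type or control and do not say whether they carried a vector, so effects of the guide and of the virus and selection cannot be told apart. The labels name no other treatment, and do not say whether the samples of a group came from separate cultures, so p-values measure the spread between these samples, which may be technical.

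Wnt ligands bind Frizzled (FZD) receptors together with LRP5 or LRP6. Dishevelled proteins are recruited to the bound receptors, the AXIN1 scaffold is drawn away from the complex that destroys beta-catenin, and the beta-catenin that accumulates joins TCF factors on DNA. TCF factors without beta-catenin act mainly as repressors, and TCF7L1 is the family member best known for repression and for its role in stem and progenitor cells. Frizzled receptors and dishevelled also serve the beta-catenin independent branch, which governs planar cell polarity and cell movement.

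TCF7L1 lies on chr2:85360515-85537510 of GRCh37, the build also called hg19, on the plus strand, and its reference transcript has 12 exons. FZD2 lies on chr17:42634852-42638630, plus strand, and consists of a single exon. The 250 bases upstream of the RefSeq start of both TCF factors are shown because TCF7L1 had the largest KO differences of the 10 genes and TCF7L2 is the other TCF factor among them. They were read 5′ to 3′ from the RefSeq promoter table of GRCh38.p14, at chr2:85133142-85133391 for TCF7L1 and chr10:112949997-112950246 for TCF7L2, both on the plus strand. Capitals mark CpG dinucleotides.
TCF7L1: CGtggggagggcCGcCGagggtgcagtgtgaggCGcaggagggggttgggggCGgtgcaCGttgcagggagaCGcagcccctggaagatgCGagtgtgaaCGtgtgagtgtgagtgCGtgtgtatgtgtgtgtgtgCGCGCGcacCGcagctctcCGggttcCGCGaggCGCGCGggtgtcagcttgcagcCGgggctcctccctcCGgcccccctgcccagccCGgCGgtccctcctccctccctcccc
TCF7L2: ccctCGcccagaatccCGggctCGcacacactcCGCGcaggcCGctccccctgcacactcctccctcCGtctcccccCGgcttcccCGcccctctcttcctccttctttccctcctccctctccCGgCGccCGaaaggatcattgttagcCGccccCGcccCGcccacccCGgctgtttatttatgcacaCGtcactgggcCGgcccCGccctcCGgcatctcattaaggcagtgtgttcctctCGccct
The TCF7L1 window holds 24 CpG dinucleotides at 72.0% GC, and the TCF7L2 window 21 at 68.0% GC, against medians of 11 and 58.0% over 35116 promoter windows. The motif letters CTTTGA (the TCF/LEF core), GGAATG (the TEAD core) and TGANTCA (the AP-1 site) were searched on both strands. They occur in 11.2%, 11.9% and 6.57% of all promoter windows, and in none of the 7 member windows that the table holds. The letters are absent from these windows, which says nothing about binding of the factors.

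Values are log2(FPKM + 1), where FPKM counts fragments per unit of transcript length and of sequencing depth. FPKM is scaled per length, so levels of different genes can be compared. SMARCA4 mRNA remained in the KO pools at 44.3% of the control mean FPKM (MDA-MB-468) and at 32.7% (MDA-MB-231). KO and control samples did not overlap in either line. In whole-population RNA, fewer cells of a type and less RNA per cell cannot be told apart. Across genes, replicates had correlations of 0.989 to 0.995, and pairs from different lines 0.665 to 0.701. The number of reads behind each sample is unknown. The lines differed in their markers: CDH1, the epithelial cadherin, ranged from 36.8 to 51.8 FPKM in MDA-MB-468 samples and from 0.12 to 1.01 in MDA-MB-231 samples. The summed FPKM of 8 epithelial markers was 5582 to 5799 in MDA-MB-468 controls and 6435 to 6948 in the KO, and 815 to 1225 and 1209 to 1343 in MDA-MB-231. In MDA-MB-468 the keratins KRT8 and KRT18 were above the controls in every KO sample, while EPCAM (296.6 to 306.8 FPKM in controls, 275.4 to 291.0 in the KO) and ESRP1 (52.6 to 56.3 and 48.9 to 50.9) were below them, so the members of the list did not move together. The summed FPKM of the 4 measured genes of 7 mesenchymal markers was 15.5 to 20.7 in MDA-MB-468 controls and 15.3 to 20.8 in the KO, and 1605 to 1830 and 1247 to 1361 in MDA-MB-231. Of 6 leukocyte markers only CD14 was in the table, and of 6 fibroblast and endothelial markers none. CD14 ranged from 46.05 to 52.86 FPKM in MDA-MB-468 controls and from 20.76 to 63.17 in the KO. In MDA-MB-231 it was 0.79 to 1.39 and 2.65 to 4.9. The part that these marker shifts have in the changes below was not tested.

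TCF7L1 was higher in the SMARCA4 KO in both lines. In MDA-MB-468 it measured 3.31, 3.21 and 3.19 in the controls and 4.38, 4.38 and 4.41 in the KO, or 8.95, 8.26 and 8.10 FPKM against 19.8, 19.8 and 20.2. Every KO sample stood above every control. The change was 1.15 (SE 0.05, 95% interval 1.02 to 1.28, limma adjusted p = 0.0048), and the ratio of mean FPKM was 2.36. TCF7L1 ranked 2nd by p among the 11529 genes of that line. The direction did not depend on any single library, but the call did. It missed the threshold without control replicate 2 (1.14, adjusted p = 0.063) and without KO replicate 2 (1.16, adjusted p = 0.068), and no gene of the table passed in either fit, where 2288 and 2023 had an unadjusted p under 0.05.

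In MDA-MB-231 TCF7L1 was near the bottom of the scale, at 0.90, 0.86 and 0.72 in the controls and 1.58, 1.49 and 1.34 in the KO. In FPKM the controls were 0.87, 0.81 and 0.65 and the KO samples 1.98, 1.81 and 1.53. The groups did not overlap. The change was 0.64 (SE 0.08, 95% interval 0.44 to 0.84, adjusted p = 0.014) and the FPKM ratio 2.28. Without KO replicate 1 the change was 0.59 with an adjusted p of 0.054, and without KO replicate 2 it was 0.63 with an adjusted p of 0.072. The call was also lost with the replicate number as a block, where no gene of that line passed.

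The TCF7L1 change in MDA-MB-468 exceeded the MDA-MB-231 change by 0.51 on the log2(FPKM + 1) scale (SE 0.11, interaction adjusted p = 0.011). This difference depends on the constant added before the logarithm. With 0.1 in place of 1 the changes were 1.23 and 1.1, and their difference was 0.13 (adjusted p = 0.59). The FPKM ratios of 2.36 and 2.28 show the same closeness, on levels that differ by 10.9-fold between the control groups.

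TCF7L2, the TCF factor of intestinal and many epithelial cells, measured 3.16, 3.02 and 3.07 in MDA-MB-468 controls and 3.41, 3.30 and 3.51 in the KO. The groups were apart, yet the difference of 0.32 (SE 0.07) had an adjusted p of 0.066. In MDA-MB-231 it was 3.48, 3.64 and 3.50 against 3.32, 3.64 and 3.68. These values overlapped, with a difference of 0.01 (95% interval -0.27 to 0.28, adjusted p = 0.98). The difference of the effects between the lines was 0.31 (adjusted p = 0.15).

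The 3 measured TCF genes TCF7, TCF7L1 and TCF7L2 summed to 21.7 FPKM in MDA-MB-468 controls and 36.1 FPKM in the KO. TCF7L1 made up 39.0% ± 2.56 of this sum in the controls and 55.3% ± 1.83 in the KO (SD, n = 3), while TCF7L2 made up 34.6% and 26.6%. LEF1, the remaining member of the family, was not among the genes of the deposited table, so its share is unknown. In MDA-MB-231 the sum was 13.1 and 14.3 FPKM, and TCF7L1 was 5.92% ± 0.829 and 12.5% ± 2.42 of it (SD, n = 3). TCF7L2 held 81.1% of the MDA-MB-231 control sum and 74.6% of the KO sum. TCF7L1 was thus the leading TCF transcript in both MDA-MB-468 groups, and TCF7L2 in both MDA-MB-231 groups. The shares follow from the levels above and carry no test of their own.

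**Figure D1:**
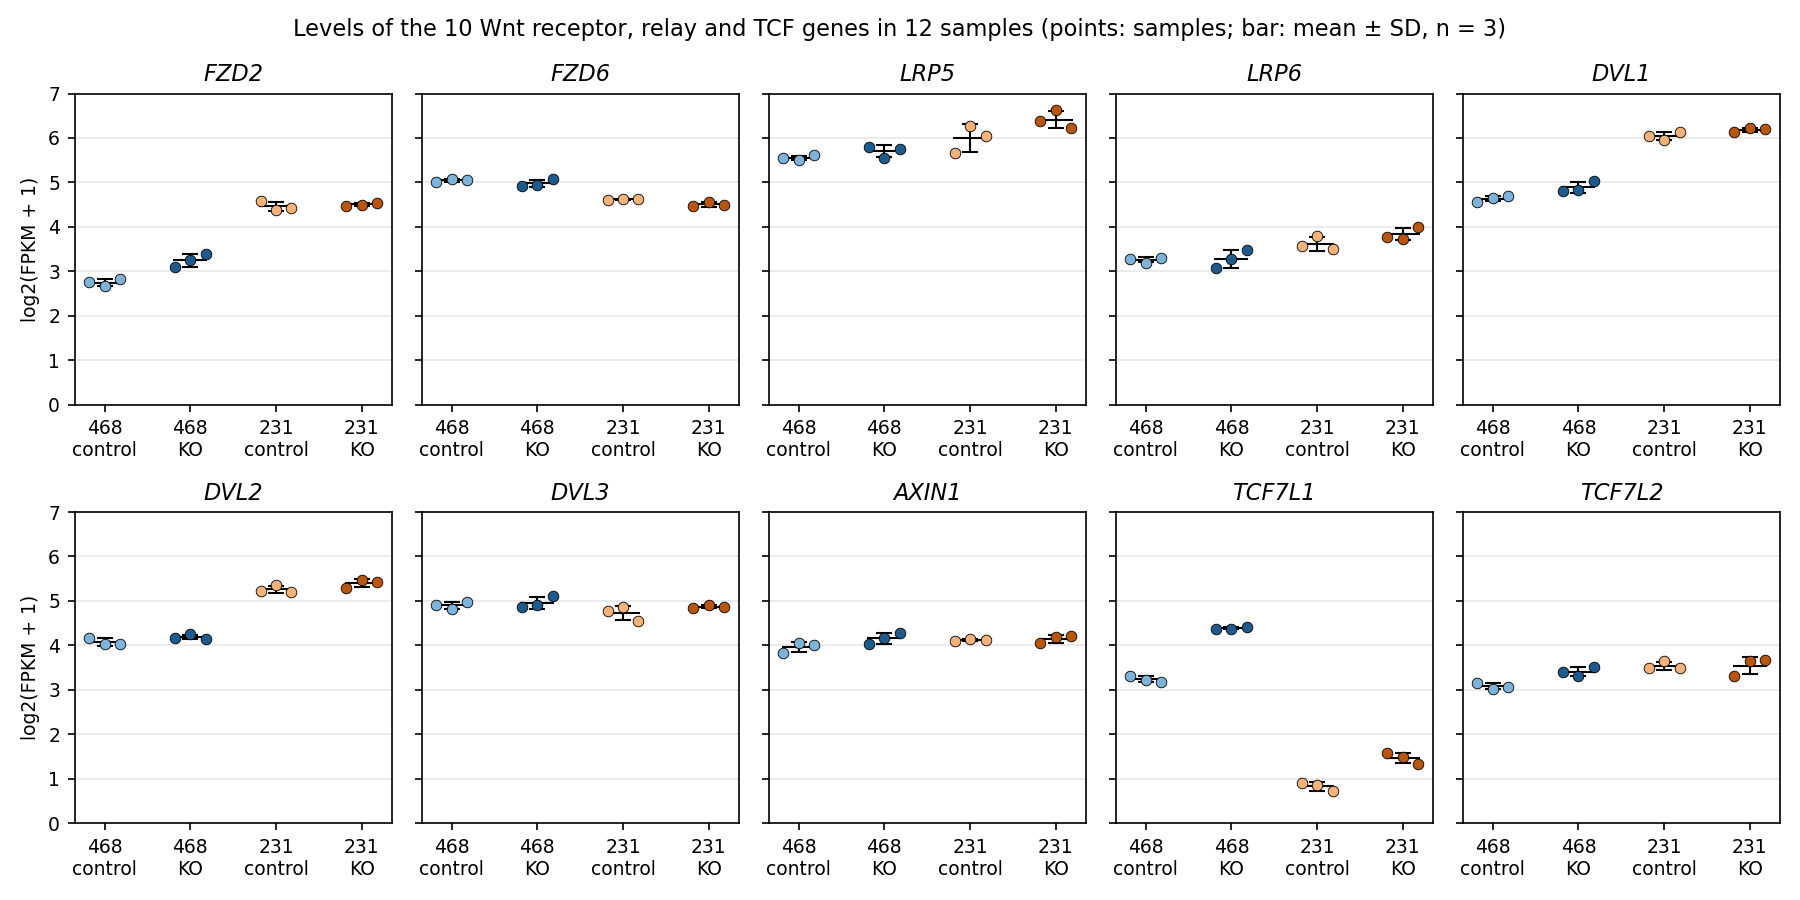
log2(FPKM + 1) of the 10 genes in the 12 samples, 1 panel per gene, with points for samples and bars for the group mean and SD (n = 3). TCF7L1 KO points lie above the control points in both lines, at 4.38 to 4.41 (MDA-MB-468) and 1.34 to 1.58 (MDA-MB-231), and FZD2 KO points lie above the controls in MDA-MB-468.

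FZD2, a receptor used by both branches of the pathway, measured 2.75, 2.67 and 2.82 in MDA-MB-468 controls and 3.09, 3.26 and 3.39 in the KO. In FPKM these are 5.75, 5.36 and 6.06 against 7.51, 8.60 and 9.50, and the groups did not overlap. The change was 0.50 (SE 0.09, 95% interval 0.28 to 0.72, adjusted p = 0.048), just inside both limits of the call. It did not pass with the replicate number as a block (0.50, adjusted p = 0.063), nor when any 1 of 5 of the 6 samples was left out: without control replicate 1, 2 or 3 the changes were 0.50, 0.46 and 0.54 with adjusted p of 0.12, 0.15 and 0.10, and without KO replicate 2 or 3 they were 0.49 and 0.43 with adjusted p of 0.17 and 0.12. It passed without KO replicate 1 (0.58). Of all 16 alternative settings, including these, 11 lost the FZD2 call.

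In MDA-MB-231 FZD2 was higher at baseline and did not pass the test, at 4.58, 4.38 and 4.43 in the controls and 4.48, 4.49 and 4.54 in the KO. The difference was 0.04 (95% interval -0.12 to 0.20, adjusted p = 0.71). The effect was larger in MDA-MB-468 by 0.46 (SE 0.12, interaction adjusted p = 0.027). That call was lost when any 1 of 7 of the 12 samples was left out, at adjusted p of 0.053 to 0.064: control replicates 1 and 2 and KO replicates 2 and 3 of MDA-MB-468, and control replicate 1 and KO replicates 1 and 2 of MDA-MB-231. The difference stayed between 0.39 and 0.54. FZD2 shares 2.2% of its 50-base windows with other genes, most with FZD1 (0.858%), so a small part of its reads could be split between genes.

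FZD6, a Frizzled linked mainly to planar cell polarity, was the most abundant Frizzled transcript of MDA-MB-468. It measured 5.0, 5.07 and 5.06 in the controls and 4.91, 4.95 and 5.07 in the KO, with a difference of -0.07 (adjusted p = 0.50). In MDA-MB-231 it was 4.61, 4.62 and 4.63 against 4.47, 4.57 and 4.48. There all 3 KO values lay below the controls, but the difference of -0.11 had an adjusted p of 0.16. FZD6 was the only member with a negative difference in both lines. Of its exonic bases 3.39% overlap an antisense transcript, and the sources do not state whether counting used strand.

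Among the 6 measured Frizzled genes (FZD1, FZD2, FZD3, FZD4, FZD6 and FZD7) the FPKM sum was 52.9 in MDA-MB-468 controls and 52.2 in the KO. FZD6 held 60.5% ± 1.92 and 58.4% ± 0.663 of it (SD, n = 3), FZD2 10.8% ± 0.417 and 16.3% ± 1.16, and FZD4 7.41% ± 1.67 and 2.86% ± 0.546. In MDA-MB-231 the sum was 80.5 and 86.4 FPKM and was spread more evenly, with 29.3% and 25.2% for FZD6, 26.2% and 25.1% for FZD2, and 22.8% and 28.4% for FZD7. The Frizzled total of MDA-MB-468 thus stayed near 52 FPKM while FZD2 took more of it and FZD4 less.

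**Figure D2:**
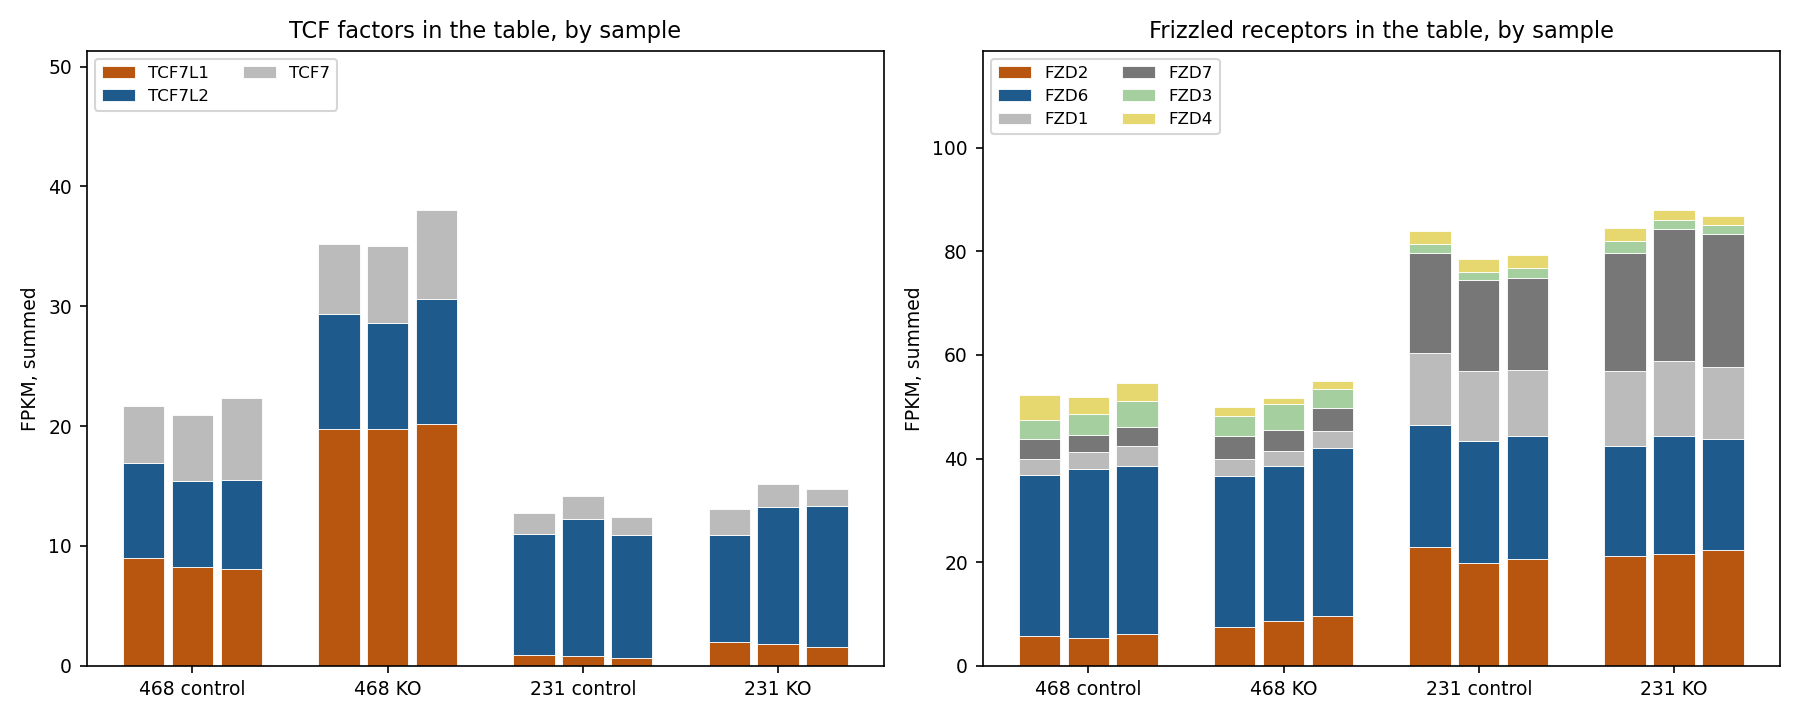
Summed FPKM of the TCF (left) and Frizzled (right) transcripts in the 12 samples, with 1 stacked bar per sample, divided by gene. The TCF sum averages 21.7 FPKM in MDA-MB-468 controls and 36.1 in the KO, with TCF7L1 as the segment that differs most. FZD6 fills on average 60.5% of the Frizzled bars of MDA-MB-468 controls.

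LRP5 and LRP6, the single-pass co-receptors that carry the Wnt signal with Frizzled, did not pass in either line. LRP5 measured 5.54, 5.50 and 5.61 in MDA-MB-468 controls and 5.80, 5.55 and 5.75 in the KO, a difference of 0.15 (adjusted p = 0.29). In MDA-MB-231 it was 5.67, 6.27 and 6.05 against 6.39, 6.62 and 6.23. That difference of 0.41 was the largest in MDA-MB-231 after TCF7L1, but the samples overlapped and the interval ran from -0.03 to 0.85 (adjusted p = 0.18). LRP6 measured 3.27, 3.20 and 3.30 against 3.07, 3.29 and 3.47 in MDA-MB-468 (0.02, adjusted p = 0.94), and 3.56, 3.80 and 3.51 against 3.78, 3.73 and 3.99 in MDA-MB-231 (0.21, adjusted p = 0.24). LRP5 provided 84.3% ± 0.216 of the summed LRP5 and LRP6 FPKM in MDA-MB-468 controls and 84.7% ± 2.18 in MDA-MB-231 controls (SD, n = 3).

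The dishevelled genes, whose proteins pass the signal from the receptors to both branches, had small positive differences that did not pass. DVL1 measured 4.56, 4.65 and 4.69 in MDA-MB-468 controls and 4.81, 4.83 and 5.03 in the KO. The groups were apart, and the difference was 0.25 (SE 0.08, adjusted p = 0.12). In MDA-MB-231 DVL1 was 6.05, 5.95 and 6.12 against 6.12, 6.21 and 6.20 (0.14, adjusted p = 0.19). DVL2 ranged from 4.03 to 4.17 in MDA-MB-468 controls and 4.15 to 4.24 in the KO (0.11, adjusted p = 0.31), and from 5.20 to 5.35 and 5.30 to 5.47 in MDA-MB-231 (0.14, adjusted p = 0.23). DVL3 ranged from 4.82 to 4.97 and 4.86 to 5.11 in MDA-MB-468 (0.06, adjusted p = 0.67), and from 4.55 to 4.86 and 4.84 to 4.91 in MDA-MB-231 (0.14, adjusted p = 0.32). Their sum was 68.6 and 76.2 FPKM in MDA-MB-468 and 127.9 and 141.0 FPKM in MDA-MB-231, control and KO in turn. DVL3 was the leading dishevelled transcript of MDA-MB-468 controls with 42.0% ± 1.11, and DVL1 that of MDA-MB-231 controls with 50.8% ± 3.40 (SD, n = 3).

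AXIN1, the scaffold of the destruction complex, measured 3.83, 4.04 and 4.02 in MDA-MB-468 controls and 4.03, 4.17 and 4.27 in the KO. The difference of 0.19 had a 95% interval of -0.03 to 0.41 (adjusted p = 0.25). In MDA-MB-231 it was 4.10, 4.15 and 4.12 against 4.04, 4.20 and 4.20 (0.03, interval -0.12 to 0.17, adjusted p = 0.81).

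In MDA-MB-468, 2 of the 10 genes passed, TCF7L1 and FZD2, both higher, where 2.14% of all genes passed and 1.33% passed as higher. In MDA-MB-231, 1 of 10 passed, TCF7L1, where 3.70% of all genes passed and 2.39% as higher. KO and control samples did not overlap for 4 of the 10 in MDA-MB-468 (TCF7L1, FZD2, TCF7L2 and DVL1, all above), against 31.0% of all genes and 17.5% as above, and for 2 of the 10 in MDA-MB-231 (TCF7L1 above and FZD6 below), against 36.0% of all genes and 16.6% as above. The median difference over the 10 genes was 0.17 for MDA-MB-468 and 0.14 for MDA-MB-231, beside 0.02 and -0.01 over all genes, and 9 of 10 differences were positive in each line. The difference between the lines passed for 2 of 10, TCF7L1 and FZD2, both larger in MDA-MB-468, against 14.7% of all genes and 7.91% as larger. FZD2 and TCF7L1 stand in gene lists that the study drew from these same samples, so these counts are not independent evidence.

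**Figure D3:**
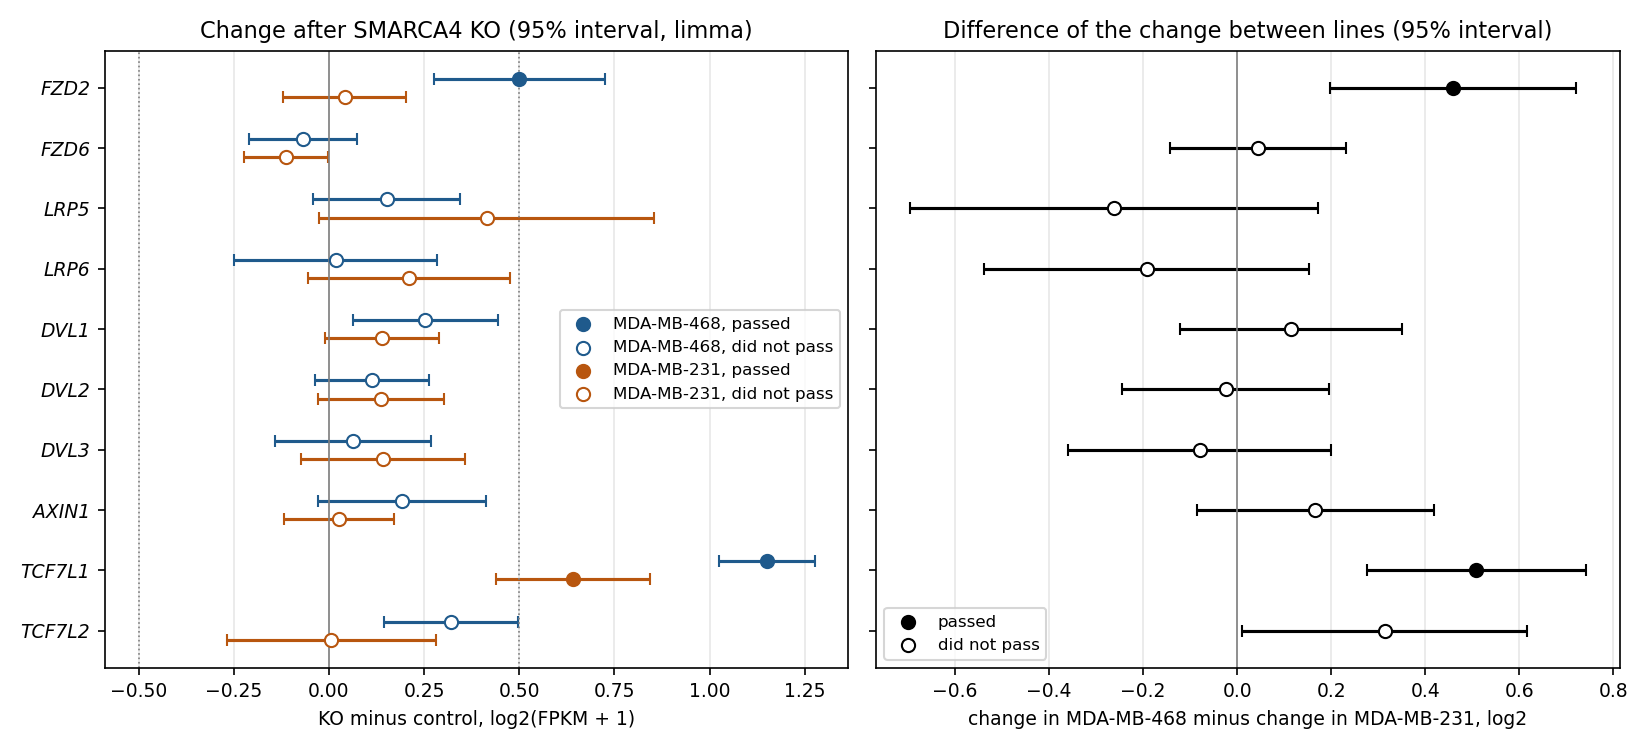
Left, KO minus control on the log2(FPKM + 1) scale for each gene and line; right, the change in MDA-MB-468 minus that in MDA-MB-231. Points are limma estimates with 95% intervals, filled where the test passed, and dotted lines mark a change of 0.5 in size. TCF7L1 is filled in both lines (1.15 and 0.64) and FZD2 in MDA-MB-468 (0.50, on the dotted line).

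More genes passed between the lines than between KO and control, both among the 10 and over all genes. Between the control groups 4 of the 10 genes passed both limits, against 64.1% of all genes, and the samples of 9 of 10 did not overlap, against 85.5%. DVL3 was the exception. These controls also enter the KO comparisons. TCF7L1 was higher in MDA-MB-468 by 2.41 (adjusted p = 4.6e-08). FZD2 was lower in MDA-MB-468 by a difference of -1.72 (adjusted p = 4.2e-07), as were DVL1 (-1.40) and DVL2 (-1.19). Without MDA-MB-231 control replicate 1 LRP5 passed as well (-0.61, making 5 of 10). FZD6 was higher there by 0.42, and TCF7L2 (-0.45), LRP5 (-0.45) and LRP6 (-0.37) were lower, with an adjusted p under 0.05 but a size under the 0.5 limit. By adjusted p alone 8 of 10 passed, against 83.8% of all genes. DVL3 (0.17, adjusted p = 0.14) and AXIN1 (-0.16, adjusted p = 0.093) did not pass.

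Ordered by level, MDA-MB-468 controls ran from LRP5 (5.55) through FZD6 (5.04), DVL3 (4.90), DVL1 (4.64), DVL2 (4.08), AXIN1 (3.96), LRP6 (3.26), TCF7L1 (3.24) and TCF7L2 (3.08) to FZD2 (2.75). DVL2 and AXIN1, and LRP6 and TCF7L1, overlapped as neighbours. In the KO TCF7L1 stood at 4.39, above DVL2 (4.19) and AXIN1 (4.15), and FZD2, LRP6 and TCF7L2 overlapped at the bottom. In MDA-MB-231 controls DVL1 (6.04) and LRP5 (6.0) were highest and overlapped, followed by DVL2 (5.26), and TCF7L1 (0.83) was lowest. TCF7L1 remained lowest in the MDA-MB-231 KO at 1.47.

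Of a list of 96 other Wnt pathway genes 54 were measured. In MDA-MB-468, 2 of 54 passed, 1 in each direction, where 2.14% of all genes passed. FZD4, a receptor best known for vascular development, fell from 3.32 to 4.88 FPKM in the controls to 1.28 to 1.74 in the KO (-0.97, SE 0.14, adjusted p = 0.032). PRICKLE1, a cytoplasmic planar cell polarity protein, rose from 4.12 to 4.47 FPKM to 6.36 to 7.79 (0.56, SE 0.08, adjusted p = 0.033). Both groups were apart for each gene. Both calls were lost on leaving out any sample but KO replicate 1, at -0.84 to -1.06 with adjusted p of 0.053 to 0.13 for FZD4 and 0.48 to 0.61 with adjusted p of 0.071 to 0.12 for PRICKLE1, and the PRICKLE1 call also with the replicate block (adjusted p = 0.071).

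In MDA-MB-231, 3 of 54 passed, where 3.70% of all genes did. CELSR1, an adhesion receptor of planar cell polarity, rose from 1.62 to 2.05 FPKM to 3.36 to 3.66 (0.68, SE 0.07, adjusted p = 0.0097). PRICKLE2, a relative of PRICKLE1, rose from 5.67 to 7.37 FPKM to 9.40 to 10.2 (0.54, SE 0.09, adjusted p = 0.026). DKK1, a secreted inhibitor that binds LRP5 and LRP6, fell from 138 to 194 FPKM to 105 to 114 (-0.61, SE 0.13, adjusted p = 0.041). Calls depended on single samples: CELSR1 was lost without KO replicate 2 (0.69, adjusted p = 0.052), PRICKLE2 on leaving out any sample but control replicate 2 (0.46 to 0.57, adjusted p of 0.049 to 0.090, the first of these only by size), and DKK1 likewise (-0.50 to -0.64, adjusted p of 0.073 to 0.13). The median over the 54 was 0.01 for MDA-MB-468 and 0.12 for MDA-MB-231.

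The difference of effects between the lines passed for 14 of 54, 5 higher and 9 lower in MDA-MB-468, against 14.7% of all genes, 7.91% higher and 6.83% lower. Of the 8 measured planar cell polarity genes 5 passed. Named after their values were seen, CELSR1 (-1.01, adjusted p = 0.00057), PRICKLE2 (-1.01, adjusted p = 0.0019), DAAM1 (-0.97, adjusted p = 0.0077) and CELSR2 (-0.74, adjusted p = 0.0012) had lower KO effects in MDA-MB-468, and PRICKLE1 (0.55, adjusted p = 0.027) a higher one. For the 4 genes with the lower effect, KO samples were below the controls in MDA-MB-468 but above those of MDA-MB-231. None of these 4 passed within MDA-MB-468 (limma adjusted p of 0.074 to 0.11). Within MDA-MB-231 CELSR2 missed the limit of size (0.49, adjusted p = 0.018), and DAAM1 that of adjusted p (0.47, adjusted p = 0.054). No single sample decided the 4 calls between the lines. The PRICKLE1 call was lost, at 0.47 to 0.53 with adjusted p of 0.050 to 0.066, without control replicate 3 or KO replicate 3 of MDA-MB-468 or without control replicate 2 or 3 or KO replicate 1 or 3 of MDA-MB-231.

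Of 20 Wnt target genes 12 were measured. In MDA-MB-468 limma called 0 of them, where 2.14% of all genes passed. An unadjusted p under 0.05 was found for 2 of the 12, and for 2899 of all 11529 genes. In MDA-MB-231, 2 of the 12 passed, where 3.70% of all genes did. DKK1 fell, as above. ID2, a helix-loop-helix inhibitor of differentiation, rose from 0.52 to 0.89 FPKM to 1.25 to 1.86 (0.57, SE 0.12, adjusted p = 0.043). That call was lost on leaving out any 1 of the 6 samples (0.47 to 0.65, adjusted p of 0.061 to 0.10). AXIN2, a feedback target often read as a measure of beta-catenin activity, was 10.8 to 11.3 FPKM in MDA-MB-468 controls and 6.34 to 9.24 in the KO (-0.52, adjusted p = 0.084), and passed without KO replicate 1 (-0.66, adjusted p = 0.017). In MDA-MB-231 AXIN2 was 1.98 to 2.36 against 2.33 to 2.58 FPKM (0.12, adjusted p = 0.26), and the difference between the lines passed (-0.63, adjusted p = 0.019), though not without KO replicate 2 of MDA-MB-468 (-0.59, adjusted p = 0.052).

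**Figure D4:**
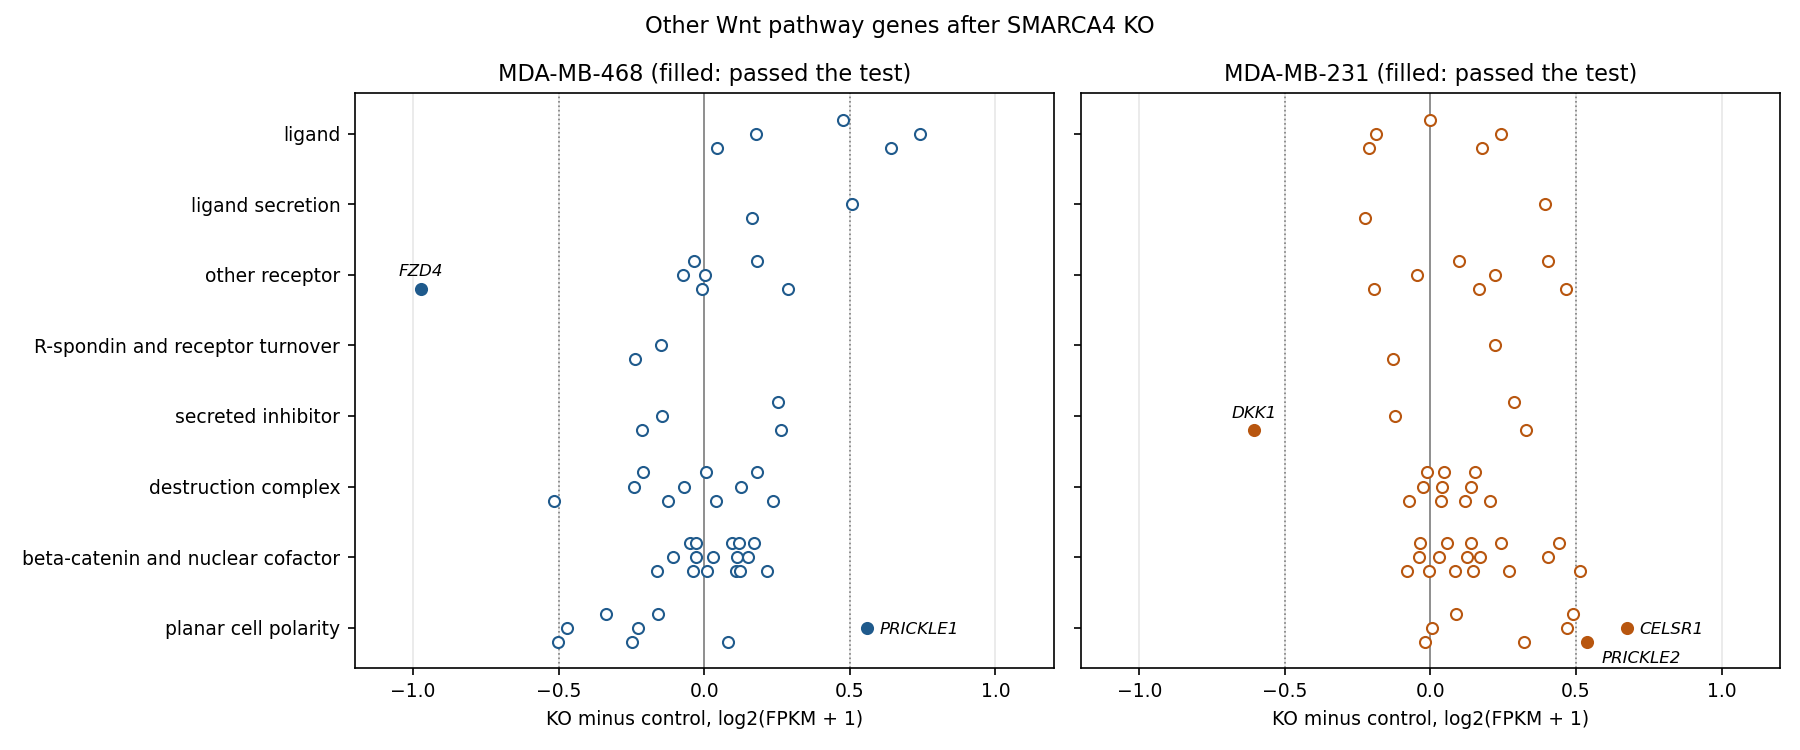
KO minus control, log2(FPKM + 1), for the 54 measured genes of the wider Wnt list by role (1 point per gene), left MDA-MB-468, right MDA-MB-231, with filled points where the test passed and dotted lines at a change of 0.5 in size. FZD4 (-0.97) and PRICKLE1 (0.56) are filled in MDA-MB-468, and CELSR1 (0.68), PRICKLE2 (0.54) and DKK1 (-0.61) in MDA-MB-231.

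Likeness of pattern was measured as the root mean square difference of log2 values over the 12 samples, each gene centred on its own mean. The genes nearest to FZD2 were SLC39A14 (0.080), SCRN1 (0.087) and ERCC2 (0.097). None of these 3 passed in MDA-MB-468, at 0.37 (adjusted p = 0.075), 0.38 (adjusted p = 0.086) and 0.29 (adjusted p = 0.090). Nearest to TCF7L1 was TFCP2L1 (0.261), a looser match. TFCP2L1, a transcription factor, had a difference of 0.87 in MDA-MB-468 (adjusted p = 0.060) and of 0.47 in MDA-MB-231 (adjusted p = 0.0082), the latter under the limit of size.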

How the data were processed

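The deposited table holds log2(FPKM + 1) values, which the authors made with STAR (hg19) and RSEM from stranded mRNA libraries after trimming, keeping genes with a mean and SD of FPKM of at least 1. Read totals were not given in the sources used here. Here limma 3.58.1 (R 4.3.3, no trend) was fitted to all 11529 genes, per line for KO against control, over 12 samples for the interaction and over the 6 controls for the line comparison, with Benjamini-Hochberg adjustment over all genes. A call needed an adjusted p under 0.05 and a log2 change over 0.5 in size, and for the interaction only the first. The table has 18 symbols turned into dates. The fit was tested on simulated data whose changes were larger than any KO change of the 10 members. That test does not cover changes of their size. The 10 members and the gene lists were chosen with earlier results of these data known. Named were the members, SMARCA4, pathway genes called in a KO comparison and the 3 genes nearest in pattern to each called member, of which 2 for TCF7L1 are not reported here. Deviations of same-numbered MDA-MB-468 samples had correlations of 0.25, 0.16 and 0.12, and differently numbered pairs ranged from -0.23 to 0.13. Control replicate 3 was no closer to KO replicate 3 (0.12) than to KO replicate 2 (0.13). For MDA-MB-231 the values were -0.05, 0.07 and -0.11, against -0.19 to 0.22. The p numbers of the sample descriptions would pair other MDA-MB-468 samples, and in MDA-MB-231 the same samples as the replicate numbers. Whether replicate numbers pair is therefore not established, so the fits above used no block unless stated. Alternatives covered the pseudocount, a filter, a trend, scaling, blocks, the fold limit and leaving out each sample. Promoters came from RefSeq (GRCh38.p14), which gave 7 of the 10 members and not FZD2, FZD6 or LRP6. Gene positions came from GENCODE (GRCh37). Figures used matplotlib 3.10.9.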

Additional observations from a re-analysis of the deposited data

Results flagged for a closer look

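The KO effect on TCF7L1 differed between the lines by 0.51 (MDA-MB-468 minus MDA-MB-231, SE 0.11, limma interaction adjusted p = 0.011), and with a pseudocount of 0.1 the difference was 0.13 (adjusted p = 0.59). The KO effect on FZD2 differed by 0.46 (SE 0.12, adjusted p = 0.027), higher in MDA-MB-468 in 3 of 3 KO samples against the controls, while the MDA-MB-231 groups overlapped.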

How the results depend on the processing

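Over the alternatives to the results of the 10 members 601 kept direction and call, 27 lost the call, 6 gained it and 15 changed sign. The 601 include results that did not pass in the main fit and stayed so. The lost calls were those of FZD2 in MDA-MB-468 (11 of 16 alternatives) and of its interaction (8 of 19). The others were those of TCF7L1 in MDA-MB-468 (3 of 16), in MDA-MB-231 (4 of 14) and of its interaction (1 of 19). In MDA-MB-468 members called went from 2 to 1 with a pseudocount of 0.1, a trend or 75th percentile scaling. The replicate block or a limit of 1 did the same, and FZD2 was each time the call lost. Members called went to 0 with a block by the p number of the sample descriptions (its meaning is not given in the labels). That block also joined KO replicate 1 and control replicate 3, whose p numbers differ (25 and 28). On leaving out a sample, members called went to 0 to 2. In MDA-MB-231 they went from 1 to 0 with the mean log2 filter of 2 (which removed TCF7L1), the replicate block or a limit of 1, and to 0 to 1 on leaving out a sample. For the interaction they went from 2 to 1 with a pseudocount of 0.1 or a limit of 0.5, and to 1 to 2 on leaving out a sample, and between the controls from 4 to 8 with no limit and to 4 to 5 on leaving out a sample. Calls over all genes in MDA-MB-468 (247) became 400 with the filter, 537 in a fit of all samples, 53 with a limit of 1, 432 without a limit, 0 with the p number block (2218 at an unadjusted p under 0.05), 241 with the replicate block (151 shared) and 0 to 474 on leaving out a sample. In MDA-MB-231 (426) they became 0 with the replicate block (3126 at an unadjusted p under 0.05), 85 with a limit of 1, 1248 without a limit and 99 to 311 on leaving out a sample. The interaction count (1699) became 1004 with a limit of 0.5 and 924 to 1897, and the control count (7395) 4150 with a limit of 1 and 7351 to 7424. With 75th percentile scaling 74.2% of MDA-MB-231 calls were higher against 64.6%, and 41.6% of interaction calls against 53.7%. The SMARCA4 change in MDA-MB-468 kept its size of -1.16 under the p number block but had an adjusted p of 0.14, and on leaving out a sample it was -1.23 to -1.10, with adjusted p over 0.05 without control replicates 2 and 3 and KO replicate 2. In MDA-MB-231 it was -1.57 with an adjusted p of 0.052 under the replicate block. TCF7L1 lost its call under the p number block in MDA-MB-468 (adjusted p = 0.14) and under the replicate block in MDA-MB-231 (adjusted p = 0.064). Sign changes were confined to differences near 0 in results that did not pass: TCF7L2 in MDA-MB-231 (-0.011 with quantile normalization, -0.060 to 0.12 on leaving out a sample), the FZD6 interaction (-0.0019 with 75th percentile scaling, -0.00014 to 0.077), LRP6 (-0.080 to 0.12) and DVL3 (-0.012 to 0.11) in MDA-MB-468, AXIN1 in MDA-MB-231 (-0.0018 to 0.078) and the DVL2 (-0.074 to 0.024) and DVL3 (-0.15 to 0.010) interactions. The other Wnt genes named were refitted by leaving out each sample and with the replicate block after the data were seen, and in MDA-MB-231 that block left 0 of 54 called against 3. The causes were not tested. The replicate block also removed the FZD2 call in MDA-MB-468. Besides this call and the TCF7L1 call in MDA-MB-231, it changed no member call. Low FPKM limits TCF7L1 in MDA-MB-231.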
